A study of Mus musculus with 10 samples.

Results

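The 6 genes described here encode the 3 DNA methyltransferases Dnmt1, Dnmt3a and Dnmt3b and the 3 TET enzymes Tet1, Tet2 and Tet3. They were taken by gene symbol from the 23420 genes in the count files, with no threshold on a measured value, though with earlier results of these data known. All 6 had enough reads to be tested, among 14161 tested genes. Messenger RNA was sequenced from cells sorted from the bone marrow of C57BL/6 mice, in 10 libraries of 4 groups. Pro-B cells were sorted as B220+, IgM- and CD43+, from controls (2 libraries) and from mice labelled Mta2_VavKO (2 libraries). Small pre-B cells were sorted as B220+, IgM- and CD43- with a gate on small size, from controls (3 libraries) and from Mta2_VavKO mice (3 libraries). Mta2 is a subunit of NuRD, a complex that combines histone deacetylation with nucleosome remodelling, and the Vav promoter is active throughout the blood-forming lineages. The labels give no age, sex, litter or animal for a library, no allele for the controls and no account of which Mta2 exons were removed, so p-values measure the spread between libraries.

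DNA methylation in mammals is placed mainly on cytosines that precede a guanine (CpG). Dnmt3a and Dnmt3b set new methyl groups, Dnmt1 copies the pattern onto the new strand when DNA is replicated, and the TET enzymes oxidise methylcytosine, which leads to its loss. In developing B cells, loss of methylation at enhancers of the immunoglobulin light chain genes is known to depend on Tet2 and Tet3, and Dnmt3a and Dnmt3b are known to delay the onset of light chain rearrangement.

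Mta2 itself was measured at 436 and 375 CPM (the usual counts-per-library unit, scaled between libraries by trimmed mean of M values) in the pro-B controls and at 163 and 166 CPM in the pro-B Mta2 KO libraries. In the small pre-B controls it was at 438, 246 and 412 CPM, and in the small pre-B Mta2 KO libraries at 199, 179 and 198 CPM. Every KO library was thus below every control of its cell type, with a log2 fold change of -1.31 (SE 0.24, adjusted p = 0.212) in pro-B and -0.93 (SE 0.19, adjusted p = 0.0420) in small pre-B cells. The second call held in 8 of 20 alternatives, with adjusted p values up to 0.250, and the first passed in 4 of 20.

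Some libraries and sorts stood apart in ways that touch the results. Total counts ranged from 17805507 to 52127004 per library, with all 4 pro-B libraries deeper than the 6 small pre-B libraries. In small pre-B control 3, replication-dependent histone genes took 0.953% and Malat1 1.401% of counts, against at most 0.0399% and 0.290% in any other library. Small pre-B Mta2 KO 1 and 2 carried 8.13 and 0.0790 CPM of Y-linked RNA, where the other 8 libraries carried 224 to 674 CPM. The pro-B sort held other cells: the summed level of 15 myeloid marker genes was 9695 to 9739 CPM in its controls and 14863 to 21749 CPM in its KO libraries, against 122 to 456 CPM in small pre-B cells. The 8 plasmacytoid dendritic cell markers summed to 5796 to 6875 CPM in pro-B and 537 to 709 CPM in small pre-B libraries. Markers that define the B lineage were present in both sorts but lower in pro-B cells, with Pax5, the factor that commits cells to the B lineage, at 99.9 ± 14.6 CPM (SD, n = 2) in pro-B controls and 480.2 ± 14.1 CPM (SD, n = 3) in small pre-B controls. All 10 small pre-B markers rose from pro-B to small pre-B cells in both genotypes. The 10 pro-B markers did not fall with the stage labels: 5 rose (Il7r and B lineage genes that the small pre-B list also holds) and 1 fell (Kit) in controls, 5 rose and 0 fell in KO cells, and their summed level was 1991 to 2175 CPM in pro-B controls and 4720 to 6330 CPM in small pre-B controls.

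Per length of counted exon, Dnmt1 was by far the most abundant of the 6 transcripts in every group, and Tet1 and Dnmt3b were the least. In the pro-B controls, the mean level in CPM per kilobase of exon (RPKM) was 102 for Dnmt1, 18.2 for Tet3, 13.4 for Dnmt3a, 7.82 for Tet2, 5.09 for Dnmt3b and 2.21 for Tet1. Neighbours in this order did not overlap between libraries, and the pro-B Mta2 KO libraries gave the same order, from 83.97 RPKM for Dnmt1 to 1.61 RPKM for Tet1. In the small pre-B controls Dnmt1 stood at 58.9 RPKM, followed by Tet3 at 21.8, Dnmt3a at 18.5, Tet2 at 10.5, Tet1 at 3.27 and Dnmt3b at 3.02 RPKM. Here the libraries of Tet3 and Dnmt3a overlapped, as did those of Tet1 and Dnmt3b. In the small pre-B Mta2 KO libraries Dnmt1 was at 52.5 RPKM, Dnmt3a at 22.3, Tet3 at 21.4, Tet2 at 5.66, Dnmt3b at 3.20 and Tet1 at 2.41 RPKM, and only Dnmt3a and Tet3 overlapped. The lowest count of any member in any library was 222, for Dnmt3b.

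**Figure D1:**
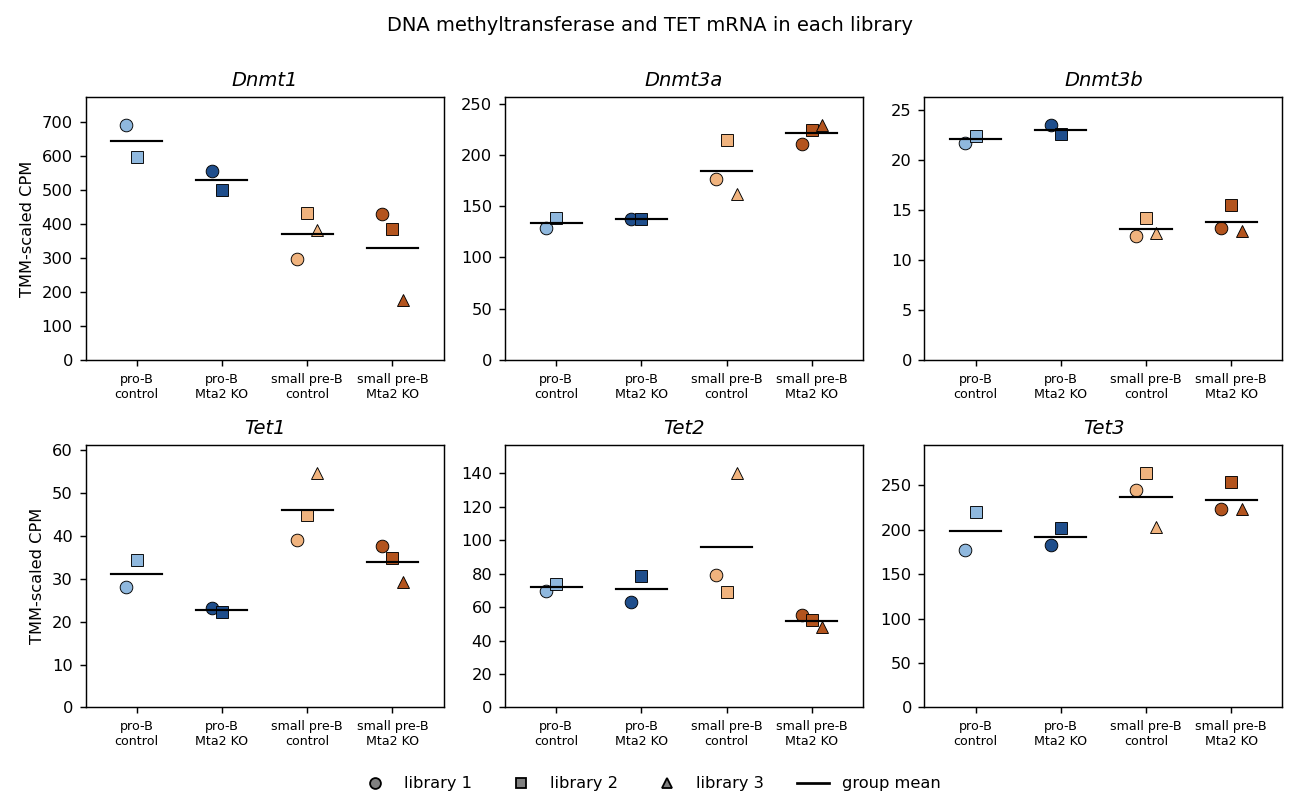
Level of each enzyme in each library, in TMM-scaled CPM on a linear axis from 0, with 1 symbol per library and a line at the group mean. Dnmt3b lies between 21.7 and 23.5 CPM in the 4 pro-B libraries and between 12.4 and 15.5 CPM in the 6 small pre-B libraries, while Tet2 in small pre-B control 3 stands at 140 CPM above all other libraries.

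Between the pro-B and the small pre-B stage the 2 de novo methyltransferases moved in opposite directions: Dnmt3a rose 1.38-fold and Dnmt3b fell to 0.594 of its pro-B level in controls. Tet1 rose 1.48-fold, and Dnmt1, Tet2 and Tet3 did not pass the test in controls. The same 3 genes passed in the same directions in the Mta2 KO libraries, in a comparison that shares no library with the first but shares its estimate of the spread. The count of 3 of 6 was close to the background, since 55.4% of all tested genes passed in controls (26% higher and 29.4% lower) and 51.3% in the Mta2 KO libraries (24% higher and 27.3% lower). The median log2 fold change of the 6 genes was 0.34 in controls and -0.09 in KO cells, beside -0.02 over all tested genes in both. The pro-B and small pre-B alignments carry different names in the file headers, so stage and processing batch cannot be told apart, and in these mixed sorts fewer cells of a type and less RNA per cell cannot be told apart.

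The 250 bases before the transcription start of the 3 genes that changed between the stages are shown because CpG is the substrate of these enzymes; CpG is in capitals, and its methylation was not measured here. They come from RefSeq on build GRCm38.p6 (the assembly of mm10), where all 6 members matched, and lie at chr12:3806730-3806979 on the plus strand for the first of the 3 Dnmt3a starts, at chr2:153649199-153649448 on the plus strand for Dnmt3b and at chr10:62887325-62887574 on the minus strand for Tet1.
Dnmt3a: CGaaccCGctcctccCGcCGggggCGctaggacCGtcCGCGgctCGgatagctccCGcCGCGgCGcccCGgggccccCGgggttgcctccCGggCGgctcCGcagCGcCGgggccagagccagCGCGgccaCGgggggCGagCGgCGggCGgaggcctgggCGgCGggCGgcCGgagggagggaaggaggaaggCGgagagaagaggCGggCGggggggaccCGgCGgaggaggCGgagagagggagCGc
Dnmt3b: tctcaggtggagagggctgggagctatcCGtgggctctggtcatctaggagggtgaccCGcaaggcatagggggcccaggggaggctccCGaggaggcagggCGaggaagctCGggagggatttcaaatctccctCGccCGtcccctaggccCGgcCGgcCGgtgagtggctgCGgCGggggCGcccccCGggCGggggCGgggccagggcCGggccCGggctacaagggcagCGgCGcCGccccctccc
Tet1: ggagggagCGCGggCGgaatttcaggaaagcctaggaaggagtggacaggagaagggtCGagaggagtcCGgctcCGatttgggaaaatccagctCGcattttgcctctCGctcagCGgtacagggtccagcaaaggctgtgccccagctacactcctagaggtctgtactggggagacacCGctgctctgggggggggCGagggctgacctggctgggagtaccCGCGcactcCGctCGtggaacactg
The Dnmt3a sequence holds 38 CpG, more than 98.1% of the 32851 RefSeq mouse promoters of this length, whose median is 6. Dnmt3b holds 21 CpG and Tet1 holds 15, more than 83.7% and 72.7% of promoters. The Tet2 promoter, not printed, holds 51 CpG, more than 99.9% of promoters, and Tet3 holds 17. The window before the first Dnmt1 start holds 2 CpG, more than 18.8% of promoters, and those before its later starts hold 7 and 26. Both strands were searched for 4 motifs of factors active in B cells or in proliferation. The octamer ATGCAAAT was in none of the members' windows (1.6% of all promoters hold it). The EBF1 motif CCCNNGGG, which reads the same on both strands, occurred 3 times in the printed Dnmt3a and 2 times in the Dnmt3b sequence (11.8% of all promoters hold it), and the E-box CAGGTG once in Dnmt3b (17.2%). The fixed bases of the EBF1 motif are all C or G. C and G made up 82.4% of the Dnmt3a and 75.2% of the Dnmt3b sequence, against a median of 52.4% over all promoters. The share of 11.8% is therefore not a background of like base content. The E2F motif TTTNGCGC occurred once, before the third Dnmt1 start (1.13% of all promoters). The start of Tet1 in RefSeq lies outside the exons that were counted, so reads from a first exon there did not enter its counts.

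Dnmt3b, the de novo methyltransferase also known from early embryos, lies at chr2:153649449-153687730 (mm10), and reads were counted over its 24 exon intervals. Its level was 21.7 and 22.3 CPM in the pro-B controls and 12.4, 14.2 and 12.7 CPM in the small pre-B controls. In the KO libraries it was 23.5 and 22.6 CPM in pro-B and 13.2, 15.5 and 12.9 CPM in small pre-B cells. All 6 small pre-B libraries were below all 4 pro-B libraries. The log2 fold change between stages was -0.75 (SE 0.14, 95% interval -1.06 to -0.44, adjusted p = 0.00159) in controls and -0.73 (SE 0.14, interval -1.04 to -0.42, adjusted p = 0.00194) in KO cells, by edgeR's quasi-likelihood test with Benjamini-Hochberg adjustment over all tested genes. This call held under each of the 19 alternatives run in either genotype.

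Dnmt3a, the main de novo methyltransferase of blood cells, lies at chr12:3806980-3914443, counted over 25 exon intervals. It was at 128 and 138 CPM in the pro-B controls and at 177, 214 and 162 CPM in the small pre-B controls. The KO libraries were at 137 and 137 CPM in pro-B and at 211, 225 and 229 CPM in small pre-B cells. Again no pro-B library reached the lowest small pre-B library, now with the small pre-B cells on the higher side. The log2 fold change was 0.47 (SE 0.13, interval 0.18 to 0.75, adjusted p = 0.0118) in controls and 0.69 (SE 0.13, interval 0.40 to 0.98, adjusted p = 0.00181) in KO cells. In controls the call was lost with the compared groups alone (adjusted p = 0.0574), without pro-B control 1 (0.100) and without pro-B control 2 (0.0503), whereas in KO cells it held under all 19 alternatives.

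The opposite moves were also described by the ratio of the 2 transcripts per length, which needs no scaling between libraries. Dnmt3a exceeded Dnmt3b by 2.57 and 2.69 in the pro-B controls and by 2.54 and 2.64 in the pro-B KO libraries. The ratio was 6.22, 6.57 and 5.55 in the small pre-B controls and 6.98, 6.31 and 7.74 in the small pre-B KO libraries. It did not overlap between the stages, which follows from the levels of the 2 genes given above, and it overlapped between the genotypes of small pre-B cells. Dnmt3l, the inactive relative that stimulates both de novo enzymes, was too low to test, with 8, 7, 8 and 37 counts in the pro-B libraries and at most 2 counts in any small pre-B library.

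Dnmt1, the maintenance methyltransferase, lies at chr9:20907206-20959888, counted over 41 exon intervals, and varied most of the 6 genes, by 3.91-fold between its lowest and highest library. Its level was 691 and 599 CPM in the pro-B controls, 557 and 502 CPM in the pro-B KO libraries, 297, 433 and 384 CPM in the small pre-B controls and 431, 385 and 177 CPM in the small pre-B KO libraries. All pro-B libraries were above all small pre-B libraries, and small pre-B Mta2 KO 3 was the lowest. The log2 fold change between stages was -0.80 (SE 0.32, interval -1.51 to -0.08, adjusted p = 0.0575) in controls and -0.68 (SE 0.32, interval -1.40 to 0.04, adjusted p = 0.102) in KO cells. In controls the threshold was passed in the DESeq2 Wald test (adjusted p = 0.0276), with the compared groups alone (0.0204), with the libraries that hold Y-linked RNA alone (0.00860) and without small pre-B Mta2 KO 3 (0.00435). In KO cells it was passed with the Y-linked libraries alone, where the only small pre-B KO library left is the third (log2 fold change -1.59, adjusted p = 0.00415).

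The library order of Dnmt1 was set beside genes of the cell cycle, because the enzyme works at replication forks. The summed level of 20 replication and S phase genes was 3461 and 2909 CPM in the pro-B controls, 2765 and 2552 CPM in the pro-B KO libraries, 1800, 2556 and 1973 CPM in the small pre-B controls and 2798, 2339 and 1279 CPM in the small pre-B KO libraries. Small pre-B Mta2 KO 3 was lowest and pro-B control 1 highest in this sum, as for Dnmt1. The order was not the same throughout. Small pre-B Mta2 KO 1 was above the pro-B KO libraries in this sum, but its Dnmt1 level (431 CPM) was below theirs (557 and 502 CPM). Of these 20 genes, 5 fell between the stages in controls (median log2 fold change -0.58) and 2 in KO cells (median -0.25), and the others did not pass. Of 20 genes of G2 and M phase, 19 fell in each genotype, with medians of -1.66 and -1.74. Of all tested genes, 29.4% fell in controls and 27.3% in KO cells, so the S phase counts did not exceed the background. The part of cell cycle in the Dnmt1 values was not tested. Over all 9835 tested genes with a mean of at least 5 CPM, the pattern most like that of Dnmt1 over the 10 libraries was that of Rrm1 (root mean square difference of centred log2 CPM 0.0623, where the pattern of Dnmt1 itself has 0.534) and then Cdc45 (0.0773). Rrm1 encodes the large subunit of ribonucleotide reductase and Cdc45 a part of the replicative helicase, and both are in the S phase list.

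**Figure D2:**
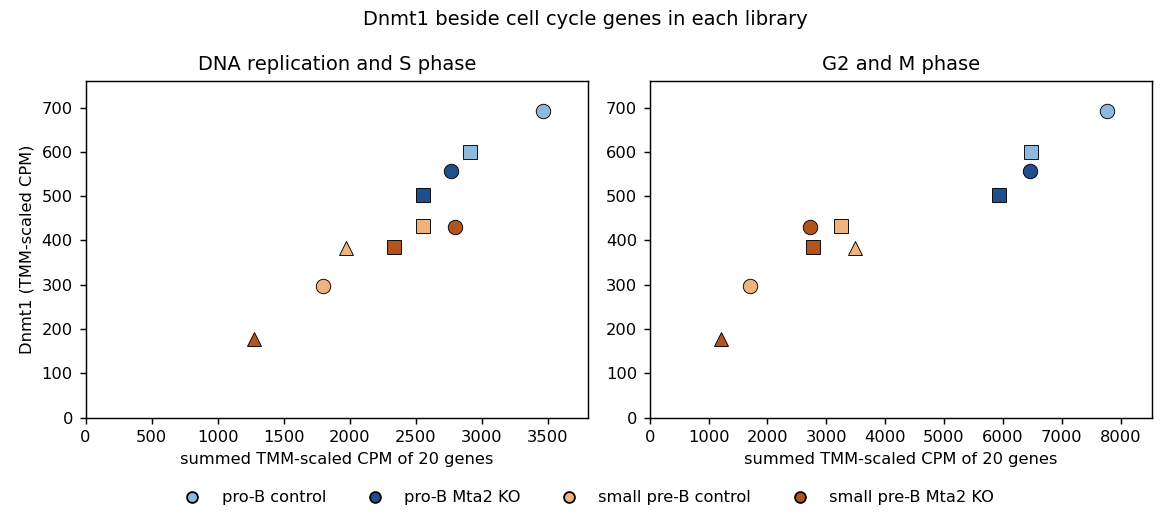
Dnmt1 level of each library (vertical axis, CPM) against the summed CPM of 20 replication and S phase genes (left) and of 20 G2 and M phase genes (right); circles, squares and triangles are libraries 1, 2 and 3 of a group. Small pre-B Mta2 KO 3 is lowest on all 3 measures, at 177, 1279 and 1203 CPM.

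Of the TET enzymes, only Tet1 passed between the stages. Tet1, whose protein carries a CXXC domain that binds CpG, lies at chr10:62804570-62880014 in the counted annotation, over 12 exon intervals. Its level was 28.1 and 34.2 CPM in the pro-B controls and 38.9, 44.7 and 54.7 CPM in the small pre-B controls, and 23.1 and 22.3 CPM in the pro-B KO and 37.6, 34.9 and 29.1 CPM in the small pre-B KO libraries. Within each genotype the small pre-B libraries were all above the pro-B libraries. The log2 fold change was 0.57 (SE 0.18, interval 0.17 to 0.96, adjusted p = 0.0218) in controls and 0.58 (SE 0.18, interval 0.18 to 0.97, adjusted p = 0.0223) in KO cells. In controls the call was lost with the compared groups alone (adjusted p = 0.0595) and without pro-B control 1 (0.175). In KO cells it was lost with the Y-linked libraries alone (0.255) and without pro-B Mta2 KO 1 (0.0923), pro-B Mta2 KO 2 (0.121), small pre-B Mta2 KO 1 (0.0652) or small pre-B Mta2 KO 2 (0.0545).

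Tet2, which lacks a CXXC domain of its own and is often mutated in blood cancers, lies at chr3:133463677-133544390, counted over 11 exon intervals. It was at 69.5 and 74.1 CPM in the pro-B controls, 63.3 and 78.8 CPM in the pro-B KO libraries, 79.0, 69.2 and 140 CPM in the small pre-B controls and 55.3, 52.6 and 48.0 CPM in the small pre-B KO libraries. The high value belongs to small pre-B control 3, the library with the histone and Malat1 reads. The stage difference had opposite signs in the genotypes, 0.42 (SE 0.27, adjusted p = 0.200) in controls and -0.45 (SE 0.26, adjusted p = 0.178) in KO cells, and neither passed. In KO cells it passed with the compared groups alone (log2 fold change -0.44, adjusted p = 0.0240) and without small pre-B control 3 (adjusted p = 0.00907).

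Tet3, known for oxidising the paternal genome in the zygote, lies at chr6:83362374-83441678, also over 11 exon intervals, and was the steadiest of the 6, within 1.49-fold over all libraries. It was at 177 and 220 CPM in the pro-B controls, 182 and 202 CPM in the pro-B KO libraries, 245, 264 and 203 CPM in the small pre-B controls and 223, 254 and 224 CPM in the small pre-B KO libraries. Control libraries of the 2 stages overlapped, and KO libraries did not. The log2 fold change between stages was 0.26 (SE 0.15, adjusted p = 0.156) in controls and 0.28 (SE 0.15, adjusted p = 0.136) in KO cells. It passed without small pre-B control 3 in the first (0.36, adjusted p = 0.0309) and with the compared groups alone in the second (0.29, adjusted p = 0.0450).

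Library for library, 4 of the 6 genes did not overlap between the stages in controls (2 higher, 2 lower) and 6 of 6 in KO cells (3 higher, 3 lower). Of all tested genes, 73% did not overlap in controls (34.1% higher, 38.9% lower) and 75.9% in KO cells (36.5% higher, 39.4% lower).

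**Figure D3:**
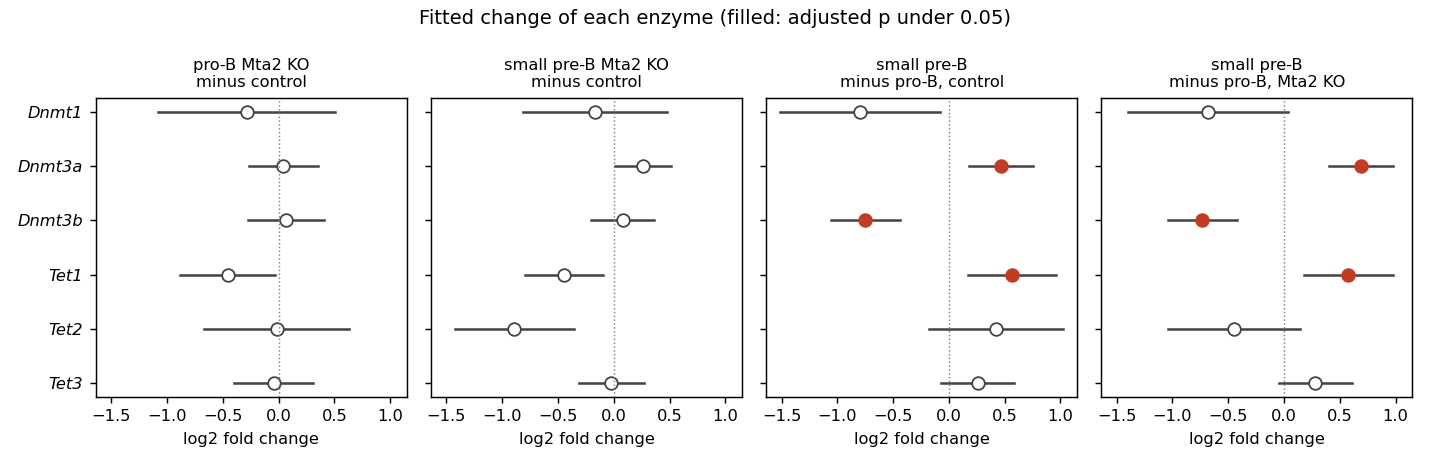
Fitted log2 fold change of each enzyme with its 95% interval in 4 comparisons; filled points have an adjusted p under 0.05. Dnmt3a and Tet1 (higher) and Dnmt3b (lower) are filled in both stage comparisons, and no point is filled in either Mta2 KO comparison, where Tet2 in small pre-B cells lies farthest from 0, at -0.89.

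Between the genotypes none of the 6 transcripts passed the threshold in edgeR in either cell type. In pro-B cells 0 of 6 were called by edgeR, where 0.0353% of all tested genes were, and 1 of 6 had an unadjusted p under 0.05, beside 6.45% of all tested genes. In small pre-B cells 0 of 6 were called, where 3.02% of all tested genes were, and 3 of 6 (Tet2, Tet1 and Dnmt3a) had an unadjusted p under 0.05, beside 24.7% of all tested genes. The DESeq2 Wald test called 0 of 6 in pro-B and 1 of 6 (Tet2) in small pre-B cells, beside 1.32% and 13.8% of all genes to which it gave an adjusted p. Limma-voom called 0 of 6 in both, beside 1.05% and 3.13% of all tested genes. The median log2 fold change of the 6 genes was -0.03 in pro-B and -0.10 in small pre-B cells, beside -0.01 and 0.01 over all tested genes.

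Tet2 showed the largest difference. In small pre-B cells its 3 KO libraries (48.0 to 55.3 CPM) were all below its 3 controls (69.2 to 140 CPM), with a log2 fold change of -0.89 (SE 0.24, interval -1.43 to -0.35, adjusted p = 0.0747). Without small pre-B control 3 it was -0.51 (adjusted p = 0.0614), so part of the size rested on that library. Stage markers also differed between these genotypes: the mean of Kit, a pro-B marker, was 9.80 CPM in small pre-B controls and 56.4 CPM in KO libraries, and that of Il2ra, a small pre-B marker, was 356 and 139 CPM. The 10 pro-B markers had a median log2 fold change of 0.68 here, with 1 (Kit) rising past the threshold, and their part in the members' values was not tested. For Tet2 the log2 fold change in small pre-B cells was -0.91 in the DESeq2 Wald test (adjusted p = 0.00880). Without small pre-B control 2 the edgeR value for Tet2 was -1.08 (adjusted p = 0.0188). In pro-B cells the same gene overlapped between genotypes, with a log2 fold change of -0.02 (SE 0.29, interval -0.66 to 0.63, adjusted p = 1). The difference between the KO effects of the 2 cell types was -0.87 for Tet2 (SE 0.37, adjusted p = 0.761), and the 6 genes' adjusted p values for this difference ran from 0.761 to 0.998. Over all genes, 0% passed in that comparison with edgeR and 6.4% had an unadjusted p under 0.05, beside 1 of 6 members; DESeq2 called 0.412% and limma-voom 0%, none of them a member.

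Tet1 was the one gene with KO libraries below controls in both cell types. The log2 fold change was -0.46 (SE 0.19, interval -0.88 to -0.03, adjusted p = 0.734) in pro-B and -0.45 (SE 0.16, interval -0.80 to -0.09, adjusted p = 0.128) in small pre-B cells, and neither passed under any of the 20 alternatives run in each. Without small pre-B control 3 the value in small pre-B cells was -0.31 (adjusted p = 0.276). Libraries that do not overlap between genotypes were common here: 55.5% of all tested genes showed this in pro-B and 25% in small pre-B cells, beside 3 and 2 of the 6 members. In pro-B cells the others besides Tet1 were Dnmt1 (lower) and Dnmt3b (higher), and in small pre-B cells Tet2.

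The methyltransferases and Tet3 had smaller fitted differences between genotypes than Tet1. Dnmt3a in small pre-B cells had a log2 fold change of 0.26 (SE 0.11, interval 0.01 to 0.52, adjusted p = 0.186), which passed only without small pre-B control 2 (0.38, adjusted p = 0.0450), and its pro-B value was 0.04 (SE 0.14, interval -0.27 to 0.35, adjusted p = 1). Dnmt3b was at 0.06 (SE 0.15, interval -0.28 to 0.40) in pro-B and 0.08 (SE 0.13, interval -0.20 to 0.36) in small pre-B cells, and neither interval reached the size of its stage difference. Dnmt1 was at -0.29 (SE 0.35, interval -1.08 to 0.51) and -0.17 (SE 0.29, interval -0.82 to 0.48), the widest interval of the 6 genes in each cell type. Without small pre-B Mta2 KO 3 the second value was 0.13. Tet3 was at -0.05 (SE 0.16, interval -0.40 to 0.31) and -0.02 (SE 0.13, interval -0.31 to 0.27). All of these had adjusted p values of 0.718 or more, apart from Dnmt3a in small pre-B cells.

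The make-up of each family was then described by reads per kilobase as a share of the 3 genes in the same library, a measure that scaling between libraries cannot move. Dnmt1 made up 86.0% and 83.3% of the methyltransferase reads in the pro-B controls and 82.1% and 80.7% in the KO libraries of that stage. In small pre-B cells it made up 69.6%, 73.5% and 76.0% in controls and 73.8%, 70.0% and 51.9% in KO libraries, all below the pro-B range. The Dnmt3a share went from 11.1% ± 1.46 (SD, n = 2) in pro-B controls to 23.2% ± 2.94 (SD, n = 3) in small pre-B controls, and reached 42.6% in small pre-B Mta2 KO 3. Dnmt3b lay between 3.28% and 5.51% in all 10 libraries.

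Among the TET enzymes Tet3 held the largest share in every library. It made up 64.3% ± 1.99 (SD, n = 2) in pro-B controls, 65.4% ± 1.13 (SD, n = 2) in pro-B KO, 61.7% ± 10.8 (SD, n = 3) in small pre-B controls and 72.6% ± 2.12 (SD, n = 3) in small pre-B KO libraries. The Tet2 share was 25.4%, 21.6% and 40.4% in the small pre-B controls and 20.7%, 18.2% and 18.8% in the small pre-B KO libraries, so every KO library was below every control, with small pre-B control 3 at a distance from the other 2. In the pro-B libraries the Tet2 share lay between 26.3% and 29.9%. The ratio of Tet3 to Tet2 per length was 2.61, 3.21 and 1.22 in the small pre-B controls and 3.40, 4.06 and 3.92 in the KO libraries. Tet1 made up 5.51% to 10.3% of the family in the 10 libraries.

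**Figure D4:**
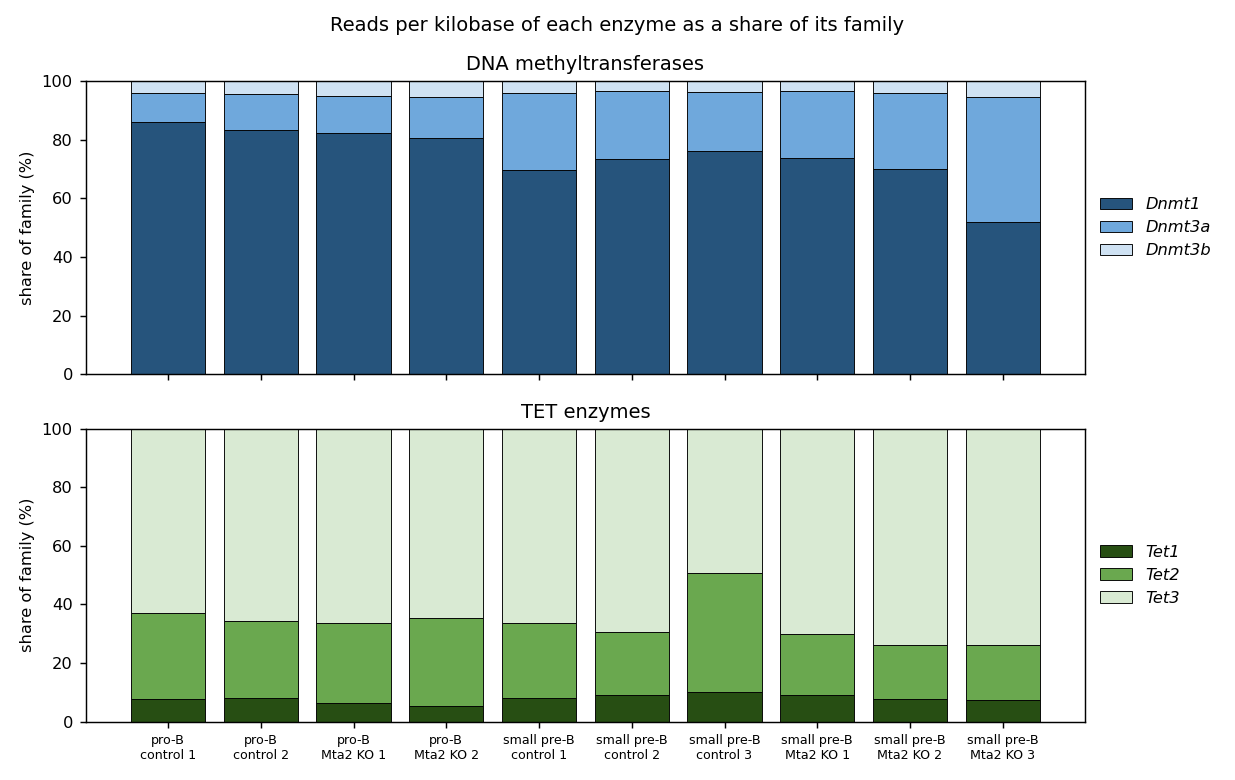
Share of each enzyme (percent, reads per kilobase) within the DNA methyltransferases (top) and the TET enzymes (bottom), 1 bar per library. The Dnmt1 share is 80.7% to 86.0% in pro-B and 51.9% to 76.0% in small pre-B libraries, and the Tet2 share is highest in small pre-B control 3, at 40.4%.

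By the same measure of likeness as for Dnmt1, the genes nearest to Dnmt3a over the 10 libraries were Ubac2 (0.0694) and Trim35 (0.0713), and those nearest to Dnmt3b were Diap1 (0.0638) and Acap3 (0.0770). Those nearest to Tet3 were Sh2b3 (0.0644) and D15Ertd621e (0.0767). Tet1 and Tet2 had less close neighbours, Zfp180 (0.114) and Zfp668 (0.133) for Tet1 and Zfyve16 (0.114) and Mkrn2 (0.149) for Tet2. Zfyve16 shared the high level of Tet2 in small pre-B control 3, with 49.2 CPM there as its highest library.

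The genes that work with the 6 enzymes were described in 7 lists by role. Between the stages, 28 of their 65 tested genes rose and 11 fell in controls, and 23 rose and 8 fell in KO cells, against the 55.4% and 51.3% of all tested genes that passed. Dnmt1 is brought to replicated DNA by Uhrf1, which reads hemimethylated CpG, and of 7 tested partners of maintenance methylation 2 rose between the stages in each genotype and 0 fell. These were Uhrf2, a relative of Uhrf1 (log2 fold change 0.72 in controls and 0.85 in KO cells), and Usp7, a deubiquitinase that binds Dnmt1 (0.43 and 0.42). Uhrf1 was at 437 and 348 CPM in the pro-B controls and at 305, 445 and 259 CPM in the small pre-B controls, which overlapped (log2 fold change -0.22, SE 0.33, adjusted p = 0.585). In the small pre-B KO libraries it was at 468, 381 and 204 CPM, lowest in the third library as for Dnmt1.

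Of 12 tested partners of de novo methylation, 6 rose and 2 fell between the stages in controls, and 3 rose and 0 fell in KO cells. Those with the smallest p were Kdm1b, a demethylase of histone H3 lysine 4 (1.91 and 1.24), Atrx, a chromatin remodeller with the same ADD fold as Dnmt3a (0.93 and 0.62), and Nsd1, whose mark on histone H3 is read by Dnmt3a (0.97 and 0.59). The list median was 0.29 in controls and 0.10 in KO cells.

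Of 10 tested readers of methylated CpG, 6 rose and 1 fell in controls and 4 rose and 1 fell in KO cells (medians 0.56 and 0.30). In KO cells these 5 of 10 were near the 51.3% of all tested genes, and the number was 3 to 7 over the alternatives. Mbd4, a reader that is also a thymine glycosylase, rose by 1.124 in controls and 1.51 in KO cells on the log2 scale, and Zbtb33 (Kaiso) by 1.07 and 1.44. Mbd1 rose by 0.37 in controls and 0.61 in KO cells. Mbd2, the subunit that ties one form of NuRD to methylated DNA, fell by 0.44 on the log2 scale in controls (adjusted p = 0.0114) and had a value of -0.29 in KO cells (adjusted p = 0.0709). Mbd3, the subunit of the other form, was at 119 and 117 CPM in pro-B controls, 101, 114 and 33.2 CPM in small pre-B controls and 126, 116 and 135 CPM in the KO libraries of that stage. Its lowest value was again in small pre-B control 3, and it passed in neither comparison (KO against control 0.61, adjusted p = 0.317, and stage in controls -0.52, adjusted p = 0.284).

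TET oxidation products are removed by base excision, and of 12 tested genes of that step 7 rose and 3 fell in controls, and 7 rose and 2 fell in KO cells (medians 0.49 and 0.51). Neil1, a glycosylase, rose by 2.12 and 2.48 on the log2 scale, from 50.3 ± 11.1 CPM (SD, n = 2) in pro-B controls to 219 ± 14.5 CPM (SD, n = 3) in small pre-B controls. Gadd45g (1.76 and 1.37) and Gadd45a (1.49 and 1.62), stress-response proteins linked to demethylation, rose as well. Tdg, the glycosylase best known for this step, was listed at 0 to 2 counts per library and was not tested. RefSeq lists pseudogene copies of Tdg, between which reads can be split or dropped, so its level is uncertain.

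Of 10 tested partners of the TET enzymes and suppliers of their cofactor 2-oxoglutarate, 4 rose and 0 fell in each genotype (medians 0.30 and 0.18). Cul4b, a scaffold of the ubiquitin ligase that acts on TET proteins, rose by 0.68 and 0.82 on the log2 scale, and Ogt, the transferase that binds Tet2 and Tet3, by 0.66 and 0.88. Idh2, which makes 2-oxoglutarate in mitochondria, rose by 0.45 in controls and 0.35 in KO cells. Cxxc5, which binds Tet2, rose by 0.44 in KO cells and had a value of 0.25 in controls (adjusted p = 0.0862).

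The methyl donor pathway was the one list with more genes falling than rising, 5 lower and 2 higher of 10 in each genotype (medians -0.54 and -0.32). Shmt2, the mitochondrial serine hydroxymethyltransferase, had a log2 fold change of -1.38 in controls and -1.15 in KO cells. Mthfd1, a folate enzyme of the cytosol, was at -1.59 in controls and -1.40 in KO cells. Mat2b, the regulatory subunit of the synthase of S-adenosylmethionine, rose by 1.11 and 0.90. Of 4 tested cytidine deaminases only Apobec1 passed, with 2.32 and 2.72. The markers of myeloid and plasmacytoid dendritic cells all fell between the stages in both genotypes, and their part in these list counts was not tested.

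Between genotypes these lists gave 1 call. In pro-B cells 0 of the 65 tested genes passed in edgeR, 5 had an unadjusted p under 0.05, and DESeq2 called 2 and limma-voom 1. The shares of all genes there were 0.0353%, 6.45%, 1.32% and 1.05%, in the same order. In small pre-B cells 1 of 65 passed in edgeR, 13 had an unadjusted p under 0.05, and DESeq2 called 5 and limma-voom 2. Here the shares of all genes were 3.02%, 24.7%, 13.8% and 3.13%. The edgeR call was Apobec2, which rose from 2.12 ± 0.813 CPM (SD, n = 3) in controls to 6.998 ± 2.29 CPM (SD, n = 3) in KO libraries (log2 fold change 1.73, SE 0.38, adjusted p = 0.0482), a call that held in 9 of 20 alternatives. Of 14 T cell markers, 6 also rose in the small pre-B KO libraries, from a summed 23.4 to 83.8 CPM in controls to 148 to 226 CPM, and their part in this value was not tested. Apobec2 was also higher in the pro-B KO libraries, at 6.49 ± 1.59 CPM (SD, n = 2) against 1.26 ± 0.484 CPM (SD, n = 2) in controls. This pro-B difference did not pass in edgeR (log2 fold change 2.36, SE 0.47, adjusted p = 0.254). The 14 T cell markers there summed to 601 to 669 CPM in controls and 737 to 850 CPM in KO libraries. Stage and genotype comparisons share the small pre-B libraries, so their values are not independent of each other.

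**Figure D5:**
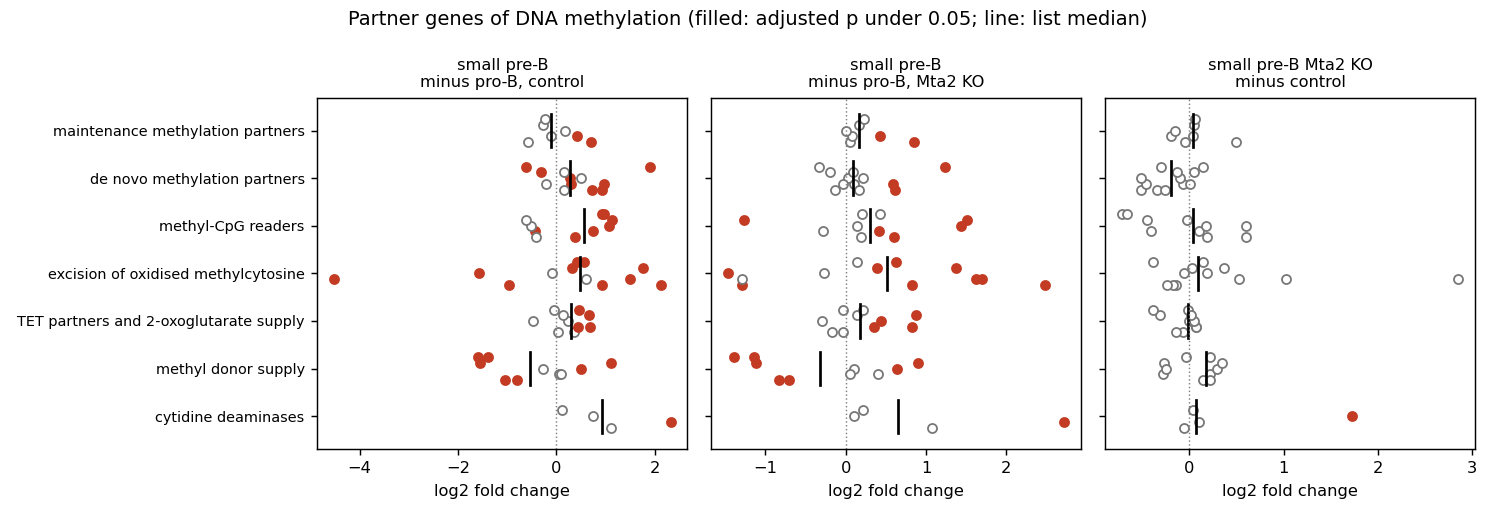
Log2 fold change of each tested gene of the 7 partner lists between the stages in control and in Mta2 KO cells, and between genotypes in small pre-B cells; filled points have an adjusted p under 0.05 and the vertical line is the median of the list. The medians of the methyl donor list, at -0.54 and -0.32, lie lowest in the 2 stage panels, and Apobec2, at 1.73, is the only filled point in the panel of genotypes.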

How the data were processed

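The authors deposited 1 file per library with raw read counts per gene symbol. Per the file headers, these counts come from featureCounts 1.4.3-p1, run on exons of an annotation of mm10 without a strand option. The submitters' processing notes also name CASAVA 1.82, STAR and mm9; positions here are mm10. The labels name a library kit that preserves strand. No counted exon of the 6 genes overlaps that of another gene. The header and the title of small pre-B control 3 carry different numbers; the title was used.

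Counts were analysed in R 4.3.3 with edgeR 4.0.16: filterByExpr by group (minimum count 10, minimum total 15), scaling by trimmed mean of M values (TMM), 1 mean per group over all 10 libraries, and the robust quasi-likelihood F-test. Within a comparison, Benjamini-Hochberg adjustment covered all 14161 tested genes; the threshold was 0.05, and log2 fold changes used a prior count of 0.125. The SE is the log2 fold change divided by the root of F, and intervals are at 95%. A level of 3 counts equals 0.054 to 0.173 CPM; this floor covers counting error only. No 2 libraries held identical counts. Groups came from the sample labels. Samples of pre-B cells, OcaB KO or the double KO were not analysed here.

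Genes named beside the 6 are Mta2, Uhrf1, Mbd2, Mbd3 and Tdg, up to 3 genes per list with the smallest p past the threshold in a comparison, and the 2 most similar genes per member among tested genes with a mean of at least 5 CPM, leaving out predicted genes; some genes that this rule names are not reported here. Likeness is the root mean square difference of log2 CPM (pseudocount 0.5), centred on the mean of the 10 libraries. Members, lists and alternatives were chosen with earlier results of these data known. The fit was tested on simulated counts. Alternatives were DESeq2 size factors, upper-quartile scaling, the DESeq2 1.42.0 Wald test, limma-voom (limma 3.58.1), no count filter, a filter of 1 CPM, the compared groups alone, the title number as a replicate block, libraries with Y-linked RNA alone, leaving out Rn45s and histone genes, and leaving out each library in turn.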

Additional observations from a re-analysis of the deposited data

How the results depend on the processing

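The number of the 6 genes past the threshold stayed at 0 under all alternatives for Mta2 KO in pro-B cells and for the difference of the KO effects. For Mta2 KO in small pre-B cells it was 1 in the DESeq2 Wald test (Tet2) and 0 to 2 when a library was left out, with the 2 without small pre-B control 2. Between the stages it was 1 to 4 in controls (1 without pro-B control 1) and 2 to 4 in KO cells when a library was left out, and 5 in KO cells with the compared groups alone. The cause was not tested. A library left alone in its group by this was taken to have the spread of the other groups.

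Signs turned only in values that did not pass. When a library was left out, the Mta2 KO effect in pro-B cells ran from -0.011 to 0.097 for Dnmt3a, -0.18 to 0.14 for Tet2 and -0.19 to 0.12 for Tet3. In small pre-B cells it ran from -0.40 to 0.13 for Dnmt1, -0.0076 to 0.14 for Dnmt3b, -0.12 to 0.058 for Tet3 and -0.20 to 0.34 for Uhrf1, and the stage difference of Uhrf1 in KO cells ran from -0.030 to 0.51. With the Y-linked libraries alone, the KO effect in small pre-B cells was -0.019 for Dnmt3b and -0.72 for Uhrf1, and the stage difference of Uhrf1 in KO cells was -0.55.

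Same-numbered control and KO libraries correlated in their deviations by 0.0459 in pro-B cells and by 0.0979, 0.178 and 0.0488 in small pre-B cells, where each library correlated best with its own number. The labels give the number no meaning, so the libraries share only a number. With it as a replicate block, 0 of 6 members passed in each KO comparison, and over all genes 0 passed in pro-B and 153 in small pre-B cells, against 5 and 428 without the block. A block between the stages could not be fitted, since no number occurs in both cell types.

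Without division by exon length, Dnmt1 made up 80.5%, 76.7% and 65.1% of the methyltransferase reads in the pro-B controls, the pro-B KO libraries and the controls of small pre-B cells, and Dnmt3a 16.7%, 19.9% and 32.6%. Dnmt3b made up 2.76%, 3.34%, 2.32% and 2.52% in these and the small pre-B KO libraries. Of the TET reads, Tet1 made up 10.3%, 7.98%, 12.1% and 10.6% in the 4 groups in that order, Tet2 23.9% and 24.8% in pro-B and 16.3% in small pre-B KO libraries, and Tet3 67.3% in pro-B KO libraries. These shifts follow from the exon lengths.

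Over all tested genes the alternatives gave 0 to 856 calls for Mta2 KO in pro-B cells (856 with the compared groups alone), 0 to 1869 in small pre-B cells (1869 in the DESeq2 Wald test) and 0 to 58 for the difference. Between the stages they gave 5335 to 8346 in controls and 4673 to 8657 in KO cells. Every member had at least 222 counts in every library, and the part of depth in the members' tests was not tested.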
